A study of Mus musculus with 58 samples.

Results

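The genes described here are 10 genes of antigen presentation by the major histocompatibility complex (MHC), of 23152 gene symbols in a count table of 58 singly sorted mouse bone marrow cells. They were chosen by name: B2m, H2-K1, H2-D1, H2-T23 and Tapbp for class I, and Cd74, H2-Aa, H2-Ab1, H2-Eb1 and H2-DMa for class II. All 10 were in the table with at least 20 counts over both gates. The cells were 34 long-term haematopoietic stem cells (LT-HSC), sorted as negative for lineage markers, Flt3 and CD34 and positive for cKit and Sca1, and 24 common myeloid progenitors (CMP), sorted as negative for lineage markers, Sca1 and CD16/32 and positive for cKit and CD34. All came from wild type C57BL/6 mice without a named treatment, and the labels of every cell also carry a passage entry of 8-10. No label gives an age or names an animal, so each gate is 1 sample: no test between gates was possible, and the intervals below are 95% intervals for counting error only.

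Class I molecules consist of a heavy chain and beta-2-microglobulin, are made by nearly all nucleated cells and show peptides from inside the cell to CD8 T cells. Class II molecules are pairs of an alpha and a beta chain that show peptides from taken-up protein to CD4 T cells. They are made mainly by dendritic cells, B cells and macrophages, with the invariant chain and the exchange factor H2-DM as helpers. C57BL/6 mice have the H-2b haplotype, which lacks a working H2-Ea gene, so that the beta chain of H2-Eb1 has no I-E partner and the I-A pair of H2-Aa and H2-Ab1 is their only classical class II molecule.

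LT-HSC held 45022 to 860553 counts per cell (median 236774) and CMP held 88329 to 706184 (median 290977). The summed marker levels differed in the direction of the gate names. The summed level of 7 stem cell markers, in counts scaled to a common total (CPM), had a median of 762 in LT-HSC (range 59.5 to 2196) and 70.4 in CMP (range 3.44 to 512), and that of 7 CMP markers had a median of 148 CPM in LT-HSC (range 6.37 to 1641) and 3937 in CMP (range 252 to 11786). Of the single markers, all 7 in the stem cell list exceeded the CMP level by 2-fold or more. With at least 20 counts over both gates, 5 of the 7 CMP markers lay below it by as much. Cebpe, with 5 counts in LT-HSC and 9 in CMP, fell short of that minimum (log2 ratio -1.28). Over all 10937 genes with at least 20 counts, 22.7% were higher and 28.1% lower in LT-HSC by 2-fold or more. Cd34, whose product was used to sort both gates, had a pooled 254 CPM in LT-HSC and 206 CPM in CMP, although the LT-HSC gate was negative for it. The pooled LT-HSC level joined 50.7 CPM in LT-HSC 1 to 16 and 361 CPM in LT-HSC 17 to 34, on either side of the CMP level. Xist, a transcript of female cells, was at 0 counts in all 34 LT-HSC and was counted in 22 of 24 CMP, so gate and sex of the donor were nearly the same split and their shares in a difference cannot be told apart beyond the values given for LT-HSC against CMP 1 and 2, the CMP without Xist. LT-HSC 1 to 16 and LT-HSC 17 to 34 also differed from each other, for example in the stem cell marker Procr (216 and 67.6 CPM).

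Both classes of transcript were more abundant in LT-HSC, but in different ways. Summed class I stood at 15095 CPM in LT-HSC and 6798 CPM in CMP, 2.22-fold higher in LT-HSC (log2 ratio 1.15, interval 1.14 to 1.17). Summed class II stood at 403 CPM in LT-HSC and 263 CPM in CMP, 1.53-fold higher (log2 0.61, interval 0.53 to 0.69). Of the 10 genes, 8 had ratios of 2-fold or more in favour of LT-HSC, 4 in each class, and Tapbp and H2-DMa lay between. Over all 10937 genes with at least 20 counts, 22.7% reached 2-fold in favour of LT-HSC and 28.1% in favour of CMP. The median log2 ratio was 1.29 over the 10 genes, 1.15 over class I and 3.41 over class II, against -0.13 over all 10937. When LT-HSC were set against CMP 1 and 2 alone, the median of all 10937 was 0.70 (0.08 over the 7946 of them with a count in CMP 1 or 2) and so higher than in the full comparison. B2m, H2-K1 and H2-D1 reached 10 counts in every cell of both gates, whereas each class II gene other than H2-DMa did so in 3 to 13 of 34 LT-HSC and in 0 to 5 of 24 CMP.

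B2m, the light chain of every class I molecule (chromosome 2, 122147686 to 122153083, plus strand, GENCODE M21 on mm10), was counted in all 58 cells. Its level ran from 7473 to 25388 CPM in LT-HSC (median 10477), against 2647 to 8181 CPM in CMP (median 4567). The groups hardly overlapped: 31 of 34 LT-HSC lay above the highest CMP, and 20 of 24 CMP lay below the lowest LT-HSC. How often other genes, or genes of like level, separated the gates as far was not counted. The same holds for every count of LT-HSC above every CMP given below. The pooled level was 10627 CPM in LT-HSC (interval 10563 to 10691) and 4867 CPM in CMP (interval 4815 to 4918), a log2 ratio of 1.13 (interval 1.11 to 1.14). With CMP 1 and 2 alone as the CMP it was 1.08.

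H2-K1, the heavy chain of the classical molecule H-2K (chromosome 17, 33996017 to 34000347, minus strand), was also counted in all 58 cells. It ran from 910 to 4953 CPM in LT-HSC (median 2328), against 413 to 1798 CPM in CMP (median 853). Here 22 of 34 LT-HSC lay above every CMP. The pooled levels of 2225 CPM in LT-HSC and 890 CPM in CMP gave a log2 ratio of 1.32 (interval 1.28 to 1.36), and 2.06 against CMP 1 and 2.

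H2-D1, the heavy chain of H-2D (chromosome 17, 35262730 to 35267499, plus strand), ran from 711 to 3899 CPM in LT-HSC (median 1874), against 190 to 2017 CPM in CMP (median 903). It too was counted in all 58 cells, with 15 of 34 LT-HSC above every CMP. Its pooled levels were 1869 CPM in LT-HSC and 841 CPM in CMP (log2 1.15, interval 1.11 to 1.19, and 1.32 against CMP 1 and 2). The 3 class I genes with the most counts thus had log2 ratios between 1.13 and 1.32.

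H2-T23 encodes the heavy chain of Qa-1, a nonclassical molecule that presents leader peptides of other class I chains to inhibitory receptors of natural killer cells (chromosome 17, 36029773 to 36032855, minus strand). It ran from 12.3 to 569 CPM in LT-HSC (median 177), against 15.2 to 303 CPM in CMP (median 64.6), and 10 of 34 LT-HSC lay above every CMP. Every cell had a count, and 27 of 34 LT-HSC and 17 of 24 CMP reached 10. The pooled log2 ratio was 1.26 (interval 1.12 to 1.41), or 1.89 against CMP 1 and 2. With LT-HSC 17 to 34 alone it was 0.92, under 2-fold. Of the 100-base words in the last 400 bases of its transcript, 12.96% also occur in transcripts of Rab33b or Hook2, so some of its reads could belong elsewhere. For the other 9 genes that share was 0%.

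Tapbp encodes tapasin, which holds empty class I molecules at the peptide transporter (chromosome 17, 33915899 to 33929292, plus strand). Its level ran from 0 to 739 CPM in LT-HSC (median 200), against 12.4 to 526 CPM in CMP (median 96.2). The groups overlapped widely, with 3 LT-HSC above every CMP and 3 LT-HSC without a count. Pooled, it stood at 206 CPM in LT-HSC and 129 CPM in CMP, a log2 ratio of 0.67 (interval 0.56 to 0.79). CMP 20 held 23.2% of the CMP counts, and without it the ratio was 0.97. The ratio against CMP 1 and 2 was 1.35.

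**Figure D1:**
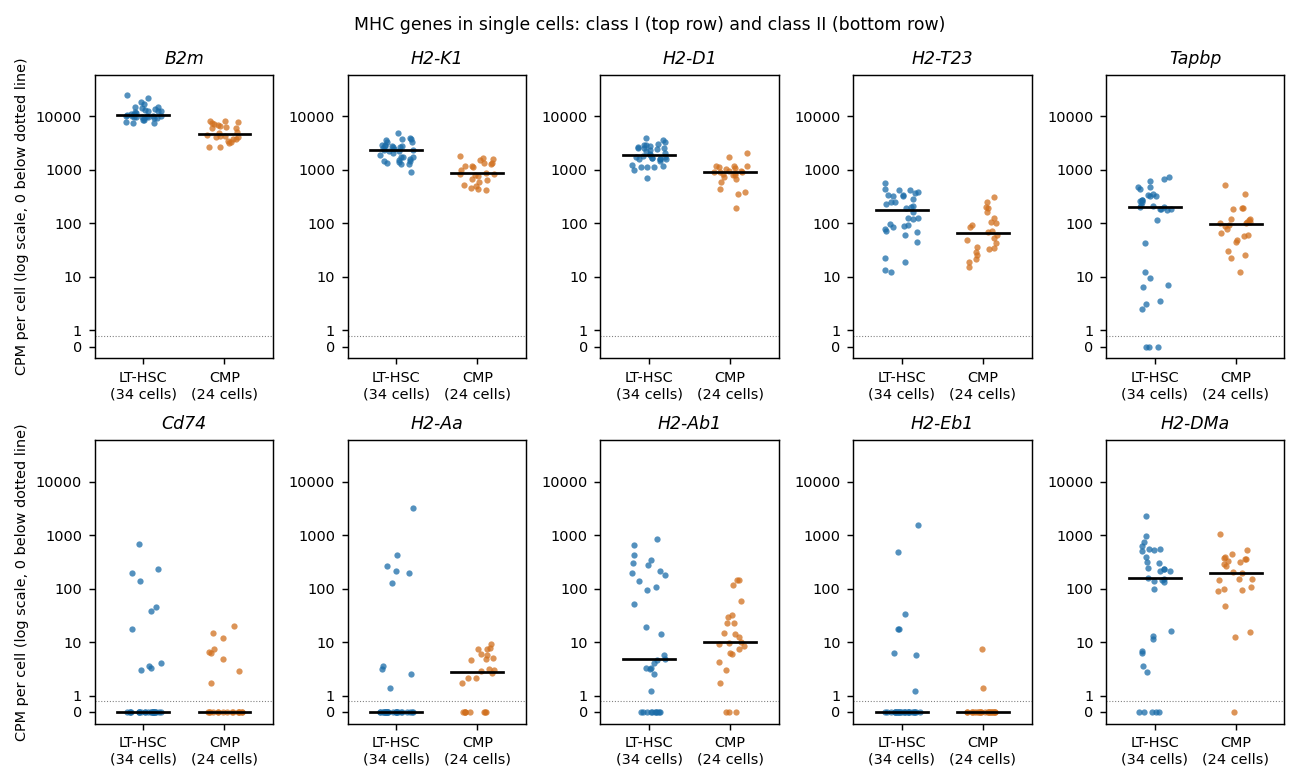
Level of each of the 10 genes in single cells, as CPM on a log axis, with class I genes in the top row and class II genes in the bottom row. Each point is 1 cell (34 LT-HSC in blue on the left of each panel, 24 CMP in orange on the right), the bar is the median, and cells without a count lie below the dotted line. B2m, H2-K1 and H2-D1 form compact clouds that sit higher in LT-HSC, whereas most cells of both gates lie at 0 for Cd74 and H2-Eb1.

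The median make-up of class I was alike in the gates, with a wide range over cells. B2m made up a median of 70.6% of the class I counts of an LT-HSC (range 58.0 to 84.3) and 71.5% of those of a CMP (range 58.9 to 82.2). The log2 ratio of H2-K1 to H2-D1 had a median of 0.17 in LT-HSC (range -1.003 to 1.67) and 0.23 in CMP (range -1.47 to 1.31). The balance between these heavy chains therefore varied from cell to cell more than it differed between the gates. Across cells, B2m and the summed heavy chains had a Pearson correlation of 0.58 in LT-HSC (n = 34) and 0.69 in CMP (n = 24), and H2-K1 and H2-D1 had one of 0.44 in LT-HSC and 0.39 in CMP. These points share each cell's total, with which class I CPM correlated at -0.55 in LT-HSC and -0.37 in CMP.

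Promoters are shown for the class I genes whose ratios lay close together. The sequences come from RefSeq on GRCm38.p6, whose table was used for 8 of the 10 genes, and run from 150 bases before to 50 bases after an annotated start, 5′ to 3′ on the strand of the gene (for H2-K1, from the more downstream of its 2 annotated starts). Capitals mark CTGATTGG on either strand (CCAATCAG on the other), and the core ATTGG (or CCAAT) that it contains. CTGATTGG has the letters of the Y box that binds the factor NF-Y. It is called the Y box sequence below by its letters alone, whatever its strand or place.
B2m (chr2:122147537-122147736, plus strand): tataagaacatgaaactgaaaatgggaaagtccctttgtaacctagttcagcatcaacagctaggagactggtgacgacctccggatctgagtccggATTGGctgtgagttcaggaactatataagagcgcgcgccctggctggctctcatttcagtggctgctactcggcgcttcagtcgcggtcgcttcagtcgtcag
H2-K1 (chr17:34000284-34000483, minus strand): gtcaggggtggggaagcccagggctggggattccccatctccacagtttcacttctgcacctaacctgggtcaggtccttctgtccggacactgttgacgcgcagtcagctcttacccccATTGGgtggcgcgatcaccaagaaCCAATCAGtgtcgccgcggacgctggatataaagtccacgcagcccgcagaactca
H2-D1 (chr17:35262944-35263143, plus strand): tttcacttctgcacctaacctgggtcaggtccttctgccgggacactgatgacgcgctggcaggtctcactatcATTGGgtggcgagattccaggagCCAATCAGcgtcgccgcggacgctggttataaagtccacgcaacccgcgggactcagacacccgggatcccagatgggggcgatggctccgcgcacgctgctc
H2-T23 (chr17:36032652-36032851, minus strand): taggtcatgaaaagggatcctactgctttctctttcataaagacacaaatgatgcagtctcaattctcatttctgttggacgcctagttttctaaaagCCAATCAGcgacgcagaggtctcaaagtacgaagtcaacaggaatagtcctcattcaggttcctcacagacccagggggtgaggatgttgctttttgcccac
The full Y box sequence occurred in the 3 heavy chain promoters, on the minus strand of each. It lay 6, 53 and 52 bases before the start for H2-K1, H2-D1 and H2-T23 in turn. Counted from the other annotated start of H2-K1, it lay after the start. On the plus strand, ATTGG also lay 30 bases before the start shown for H2-K1 and 76 bases before that of H2-D1. B2m held the core without the full sequence, on the plus strand 53 bases before its start. Which of these stretches serves as a Y box was not tested. In windows of 250 bases before to 50 after the start, the Y box sequence was found for 5 of the 8 genes, H2-Aa and H2-Eb1 included. It was in 4.1% of all 32851 promoters of the table. H2-K1 and H2-DMa had 2 starts each, and a match at either was counted for the gene, whereas table shares are per promoter. The core was found for all 8 genes, though not at the H2-DMa start 34122832, and in 37.4% of the table. GGGATTCCC, a core bound by NF-kappaB, occurred in the longer windows of H2-K1 and H2-D1, 124 and 170 bases before the start, and in 0.353% of the table (116 promoters). AANNGAAA, a core bound by interferon regulatory factors, occurred in 6 of the 8, among them B2m, H2-K1, H2-D1 and H2-T23, and in 23.9% of the table. All motifs were searched on both strands, and a match describes the letters only.

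Class II transcripts were spread unevenly over the cells. The sum of the 5 class II genes ran from 0 to 8485 CPM in LT-HSC (median 374), against 15.5 to 1055 CPM in CMP (median 258). H2-DMa supplied 2019 of 4004 class II counts in LT-HSC and 1583 of 1861 in CMP. The sum of the other 4 genes had a median of 43.3 CPM in LT-HSC (range 0 to 6264) and 16.6 CPM in CMP (range 0 to 164), with 14 of 34 LT-HSC above every CMP. Pooled, those 4 genes stood at 200 CPM in LT-HSC and 39.4 CPM in CMP, a log2 ratio of 2.34 (interval 2.16 to 2.53), or 1.51 against CMP 1 and 2. That sum was taken after the values of H2-DMa had been seen.

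H2-Ab1 encodes the beta chain of I-A (chromosome 17, 34257689 to 34269419, plus strand). It ran from 0 to 844 CPM in LT-HSC (median 4.79), against 0 to 146 CPM in CMP (median 9.87), so the median was lower in LT-HSC while 9 of 34 LT-HSC lay above every CMP. At least 10 counts were found in 13 of 34 LT-HSC (38.2%, interval 22.2 to 56.4) and 5 of 24 CMP (20.8%, interval 7.13 to 42.2). The pooled levels were 114 CPM in LT-HSC and 33.6 CPM in CMP, a log2 ratio of 1.77 (interval 1.57 to 1.98). Of the 1137 LT-HSC counts 466 came from LT-HSC 34 alone, without which the ratio was 1.12. Within LT-HSC the level was 24.6 CPM in cells 1 to 16 and 161 CPM in cells 17 to 34. With cells 1 to 16 alone the ratio turned to -0.44, and against CMP 1 and 2 it was 0.82.

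H2-Aa encodes the alpha chain of I-A (chromosome 17, 34282744 to 34287823, minus strand). It ran from 0 to 3198 CPM in LT-HSC (median 0), against 0 to 9.32 CPM in CMP (median 2.76). It was counted in 10 LT-HSC of 34 and in 16 CMP of 24. No CMP held more than 3 counts, whereas 6 LT-HSC held 10 or more and all 6 lay above every CMP. With each cell thinned at random to 97978 counts, and shallower cells left out, 6 of 30 LT-HSC and 6 of 22 CMP had a count. Low counts of H2-Aa were thus common in CMP and high counts occurred in LT-HSC. Whether counts as low as these arose in the cells they were assigned to was not tested. The pooled levels were 36.9 CPM in LT-HSC and 3.40 CPM in CMP, a log2 ratio of 3.41 (interval 2.84 to 4.10). Of the 366 LT-HSC counts 144 came from LT-HSC 25, without which the ratio was 2.70. Against CMP 1 and 2, which held 3 counts, it was 3.76 (interval 2.43 to 6.27).

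H2-Eb1 encodes the I-E beta chain (chromosome 17, 34305867 to 34316674, plus strand). It ran from 0 to 1533 CPM in LT-HSC and from 0 to 7.40 CPM in CMP, with a median of 0 in both. Its 233 LT-HSC counts came from 8 cells, of which 3 held at least 10, and its 2 CMP counts came from 1 count each in CMP 1 and CMP 6. With so few CMP counts the log2 ratio of 6.05 had an interval from 4.50 to 9.43. LT-HSC 27 contributed 147 of the 233 LT-HSC counts, and the ratio without it was 4.67. Against CMP 1 and 2 it was 4.34 (interval 2.43 to 10.2).

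Cd74, the invariant chain that guides new class II molecules to the peptide-loading compartment, lies on chromosome 18. It ran from 0 to 689 CPM in LT-HSC and from 0 to 19.9 CPM in CMP, again with a median of 0 in both. A count was present in 11 of 34 LT-HSC and 9 of 24 CMP. Only LT-HSC reached 10 counts, 5 of 34, against 0 of 24 CMP (interval up to 14.2%). The pooled levels were 25.1 CPM in LT-HSC and 2.12 CPM in CMP, a log2 ratio of 3.52 (interval 2.81 to 4.42). Against CMP 1 and 2, which held 3 counts, it was 3.21 (interval 1.86 to 5.72). The largest contribution, 71 of 249 counts, came from LT-HSC 27. A Cd74 count was thus found in 32.4% of LT-HSC (interval 17.4 to 50.5%) and in 37.5% of CMP (interval 18.8 to 59.4%). These shares describe the cells of each gate, and the gates were not tested against each other.

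H2-DMa encodes the alpha chain of H2-DM, which exchanges the invariant chain remnant for peptide (chromosome 17, 34119541 to 34139101, plus strand). It was the only class II gene with many counts in most CMP: at least 10 counts were found in 22 of 34 LT-HSC and 21 of 24 CMP. The level ran from 0 to 2221 CPM in LT-HSC (median 157), against 0 to 1050 CPM in CMP (median 200). The pooled levels of 203 CPM in LT-HSC and 224 CPM in CMP gave a log2 ratio of -0.14 (interval -0.24 to -0.04). CMP 20 held 26.7% of the CMP counts, and without it the ratio turned to 0.22. Against CMP 1 and 2 it was 0.44.

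**Figure D2:**
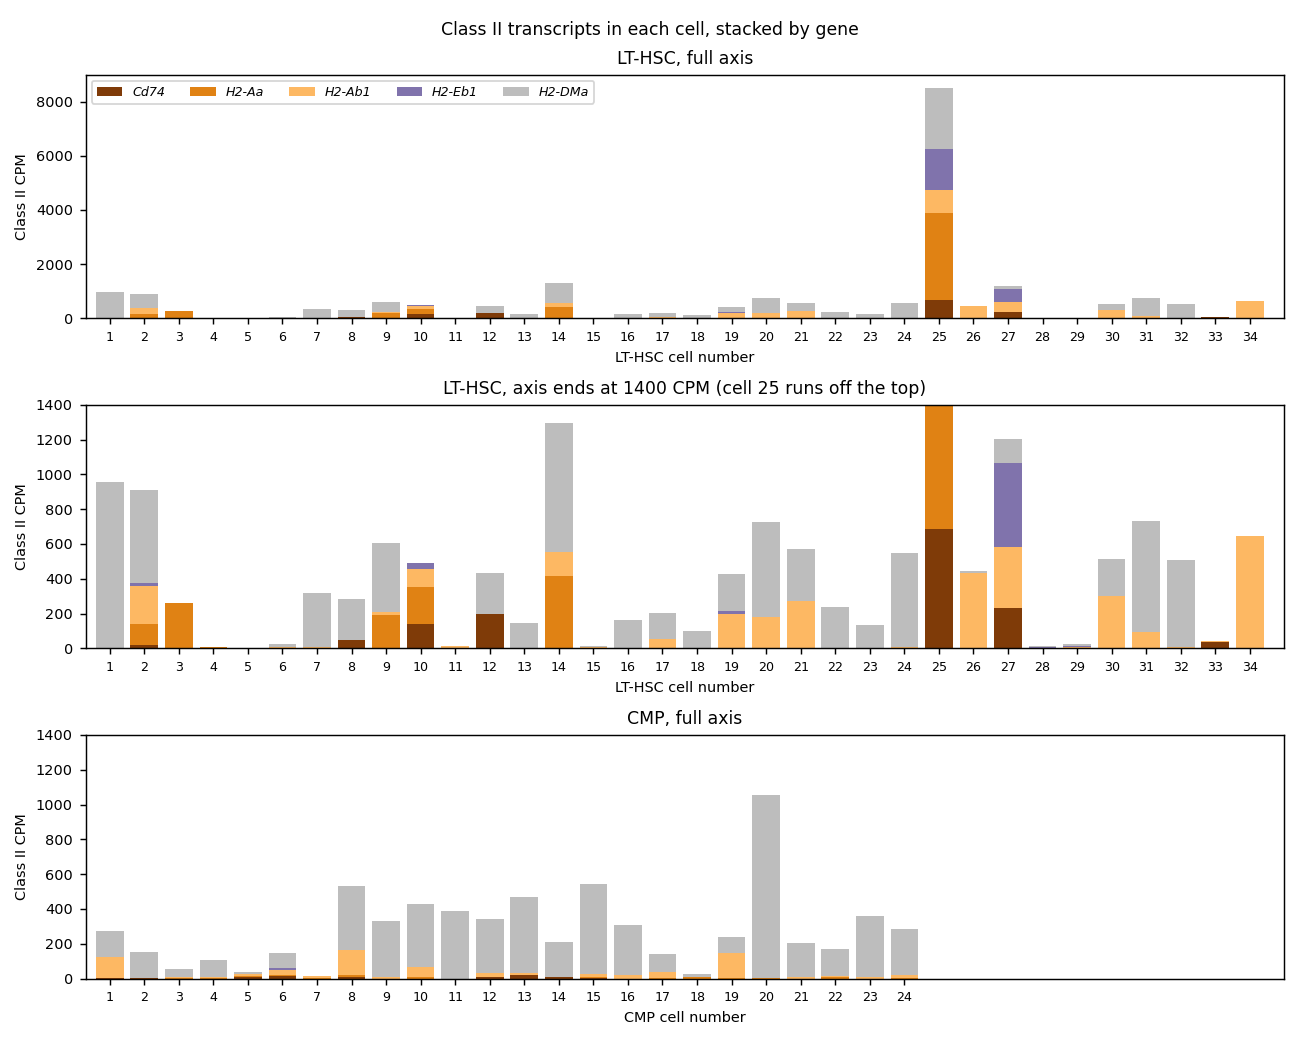
Class II transcripts of each cell in CPM, stacked by gene, with LT-HSC in the upper panels (full axis, then an axis that ends at 1400 CPM) and CMP in the lower panel. Each bar is 1 cell in the order of its label number. LT-HSC 25 reached 8485 CPM with all 5 genes, and grey H2-DMa makes up most of the bars in CMP.

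The promoters of H2-Aa and H2-Eb1 are shown because both hold the letters CTGATTGG, at 51 and 62 bases before the start. They lie on the plus strand here and on the minus strand in the heavy chain genes, so only the letters are shared. Capitals mark CTGATTGG and the core ATTGG or CCAAT, as above.
H2-Aa (chr17:34287774-34287973, minus strand): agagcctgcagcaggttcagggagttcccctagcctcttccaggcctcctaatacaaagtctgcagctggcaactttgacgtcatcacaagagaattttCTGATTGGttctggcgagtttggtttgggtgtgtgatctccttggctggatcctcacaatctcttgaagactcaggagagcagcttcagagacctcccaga
H2-Eb1 (chr17:34305717-34305916, plus strand): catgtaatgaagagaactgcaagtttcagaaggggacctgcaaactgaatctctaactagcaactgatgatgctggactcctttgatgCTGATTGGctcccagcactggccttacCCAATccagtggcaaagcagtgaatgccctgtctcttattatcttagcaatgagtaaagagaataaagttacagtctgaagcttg
The H2-Aa window also held TGACG, the core of the X2 box, 74 bases before its start. This core was found for 4 of the 8 genes (B2m, H2-K1, H2-D1 and H2-Aa) and in 20.8% of the table. On the plus strand, TGACG and ATTGG lay 78 and 53 bases before the start in B2m and 101 and 76 in H2-D1. They lay 55 and 30 bases before the start shown for H2-K1, and 74 and 48 in H2-Aa. The windows of H2-DMa, at the annotated starts 34122832 and 34125518, held no Y box sequence, and both starts lay inside the gene span given above.

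Several class II genes were high together in a few LT-HSC. At least 3 of the 5 genes reached 10 counts in 5 of 34 LT-HSC (cells 2, 10, 14, 25 and 27) and in 0 of 24 CMP. Without H2-DMa, all 4 remaining genes reached 10 counts in LT-HSC 10 and 25, and 3 of 4 did in LT-HSC 27. LT-HSC 27 held 147 H2-Eb1, 106 H2-Ab1 and 71 Cd74 counts but no H2-Aa count. H2-Ab1 was also high without the others: of the 13 LT-HSC with at least 10 H2-Ab1 counts, 8 had none of Cd74, H2-Aa and H2-Eb1 at 10 counts, as had all 5 such CMP. The highest of these 8, LT-HSC 34, held 466 H2-Ab1 counts, 1 H2-Aa count and none of Cd74. The 4 genes summed to under 10 counts in 17 of 34 LT-HSC and 19 of 24 CMP.

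LT-HSC 25 had the highest class II level of all 58 cells. It held 144 H2-Aa, 100 H2-DMa, 69 H2-Eb1, 38 H2-Ab1 and 31 Cd74 counts, 382 in all, beside 1529 class I counts. Its total of 45022 counts was the lowest among LT-HSC. It had counts for 5 of the 7 stem cell markers. These were 52 of Ly6a, which encodes Sca-1, 16 of Procr, 9 of Hlf, 2 of Meis1 and 1 of Slamf1. Mecom and Mllt3 had 0 in this cell. Of the marker lists for cells that make class II, its B cell and macrophage lists held 0 counts and its dendritic list held 1, of Flt3. Over all cells, 3 of the 6 B cell genes and 3 of the 7 macrophage genes were without a count, and the median summed level over LT-HSC was 0 for both lists and 1.87 CPM for the dendritic list. In LT-HSC 25 the T or NK and endothelial lists held 0 as well, and the CMP list held 4 (Mpo 1 and Cd34 3). The neutrophil list held 22, or 489 CPM, within its range of 219 to 606 CPM over LT-HSC (median 338).

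Class II was then compared with class I inside each cell, as the share of class II in the summed counts of the 10 genes, with no division by transcript length. That share had a median of 1.78% in LT-HSC (range 0 to 19.99) and 4.11% in CMP (range 0.26 to 9.04). The median share was thus lower in LT-HSC, although the median levels of both class I and class II were higher there. This direction depended on H2-DMa. Without it, class II held 1985 counts beside 149911 of class I in LT-HSC, and 278 beside 48010 in CMP. The pooled share without H2-DMa was therefore higher in LT-HSC. In LT-HSC 25 the share was 19.99% (interval 18.2 to 21.9), and the next LT-HSC, number 31, stood at 5.84%. The highest CMP was CMP 20, at 9.04% (interval 8.24 to 9.90), where 423 of 425 class II counts were H2-DMa. After thinning to 97978 counts, which leaves out LT-HSC 25 and 3 further LT-HSC and 2 CMP, the medians were 2.04% in LT-HSC and 3.43% in CMP.

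As sums, class I varied less among cells than class II and was the more abundant class. Its sum ran from 10725 to 33961 CPM in LT-HSC (median 15147), against 3460 to 11288 CPM in CMP (median 6789), and 33 of 34 LT-HSC lay above every CMP. The coefficient of variation over cells was 30.7% for class I and 226% for class II in LT-HSC, and 32.3% for class I and 79.3% for class II in CMP. The class II value of LT-HSC rests on LT-HSC 25, without which it was 89.5%, beside 25.9% for class I. Class I genes of lower level varied more than their sum: 91.9% in LT-HSC and 96.2% in CMP for Tapbp, and 73.6% and 86.3% for H2-T23. For H2-DMa the values were 148% and 90.1%, and the remaining class II genes lay between 94.3% and 442%. Whether level accounts for the difference between the classes was not tested. The difference between the class II and class I log2 ratios was -0.54 (interval -0.62 to -0.46), and it turned to 1.19 when H2-DMa was left out. Across cells, class I and class II had a Pearson correlation of 0.47 in LT-HSC (n = 34, Spearman 0.28) and 0.50 in CMP (n = 24, Spearman 0.45). Without LT-HSC 25 the LT-HSC value was 0.28, and for class II without H2-DMa the CMP value was -0.07.

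**Figure D3:**
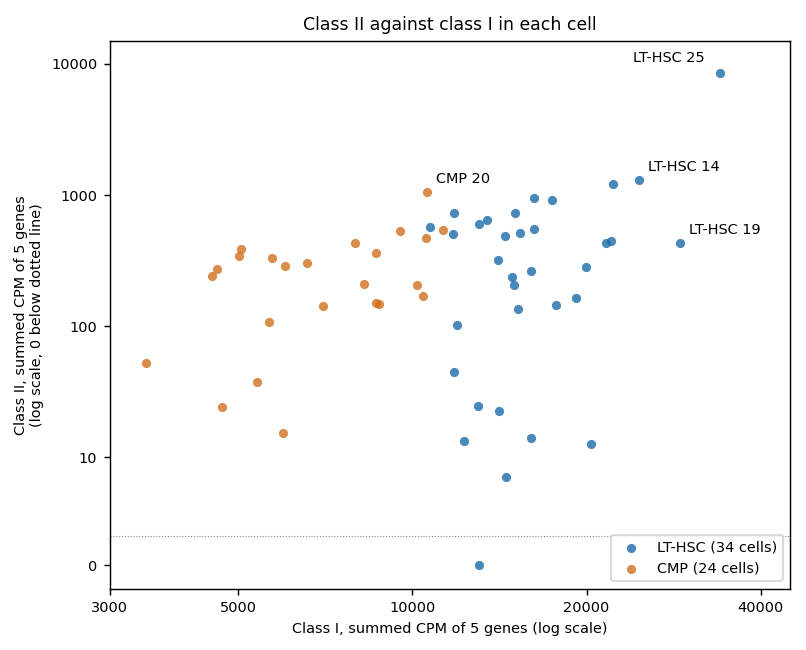
Summed class II CPM against summed class I CPM in each cell, both on log axes, with 34 LT-HSC in blue and 24 CMP in orange and cells without a class II count below the dotted line. LT-HSC and CMP separate along the class I axis, where 33 LT-HSC lie above the highest CMP at 11288 CPM, and overlap along the class II axis, where LT-HSC 25 stands highest at 8485 CPM.

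Other class I heavy chains and class I-like genes mostly had ratios in the direction of the members. Of 17 listed, 8 had no count in any cell, and of 9 with at least 20 counts 6 were higher in LT-HSC by 2-fold or more, 2 were lower by as much and 1 lay between (median log2 ratio 1.48). The shares over all 10937 genes were 22.7% higher and 28.1% lower in LT-HSC. Fcgrt, the neonatal Fc receptor, had 439 counts in LT-HSC and 0 in CMP, at least 104-fold higher against a floor of 3 counts over the CMP pool. Procr, an MHC-like receptor of protein C that also served as a stem cell marker, stood at 119 CPM in LT-HSC and 0.85 CPM in CMP (log2 7.01). Hfe, a regulator of iron uptake, had a log2 ratio of 3.52, with 54 of its 72 LT-HSC counts in LT-HSC 22, without which the ratio was 1.59. H2-T10, a nonclassical chain, had a ratio of 1.63, which was 2.41 without CMP 1 and 0.22 against CMP 1 and 2, under 2-fold. Cd1d1, which presents lipids, was lower at 18.4 CPM in LT-HSC, against 49.3 CPM in CMP (log2 -1.42), but at -0.16 against CMP 1 and 2, under 2-fold, and at -2.01 without LT-HSC 12. H2-T24 was also lower (log2 -2.10), but its 22 LT-HSC counts came from 1 cell and CMP 1 held 89.7% of its CMP counts, without which the ratio turned to 0.94.

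Genes that supply and load class I peptides went both ways. All 12 had at least 20 counts, of which 1 was higher in LT-HSC by 2-fold or more, 3 were lower by as much and 8 lay between (median -0.14, against -0.13 over all genes, of which 22.7% were higher and 28.1% lower by as much). The subunit genes of the peptide transporter went apart: Tap1 stood at 43.7 CPM in LT-HSC and 101 CPM in CMP (log2 -1.21, interval -1.38 to -1.03), and Tap2 at 78.3 CPM in LT-HSC and 33.3 CPM in CMP (log2 1.23, interval 1.02 to 1.45). Both kept these directions against CMP 1 and 2, at -1.38 for Tap1 and 2.80 for Tap2, and each came just under 2-fold without 1 cell (-0.98 for Tap1 without CMP 24 and 0.99 for Tap2 without LT-HSC 21). The chaperone Canx (log2 -1.24) and the trimming peptidase Erap1 (log2 -1.16) were lower in LT-HSC, but under 2-fold against CMP 1 and 2, at -0.64 for Canx and -0.54 for Erap1. Erap1 was at -1.79 without LT-HSC 28 and at -0.91 without CMP 19. Psmb8, a subunit of the immunoproteasome, stood at 643 CPM in LT-HSC and 750 CPM in CMP (log2 -0.22), and the other immunoproteasome and activator genes of the list had log2 ratios above 0 (Psmb10 0.79, Psme1 0.53, Psme2 0.36 and Psmb9 0.14), these 4 being named after their values were seen.

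Of 10 other genes of the class II pathway, 7 had at least 20 counts, of which 2 were higher in LT-HSC by 2-fold or more, 3 were lower by as much and 2 lay between (median 0.59). The shares over all 10937 genes, as above, were 22.7% higher and 28.1% lower. H2-Oa, the alpha chain of the H2-DM inhibitor H2-DO, stood at 27.8 CPM in LT-HSC and 1.56 CPM in CMP (log2 4.10), with at least 10 counts in 8 of 34 LT-HSC and 0 of 24 CMP. Without CMP 9, which held 7 of its 11 CMP counts, the ratio was 5.42. The protease gene Ctsl stood at 77.8 CPM in LT-HSC and 34.7 CPM in CMP (log2 1.16), which came under 2-fold without LT-HSC 10 (0.91), without LT-HSC 16 (0.92) and against CMP 1 and 2 (0.96). Ctss, the protease that removes the invariant chain in antigen-presenting cells, was lower at 8.26 CPM in LT-HSC, against 84.2 CPM in CMP (log2 -3.34, or -5.02 without LT-HSC 21, which held 58 of its 82 LT-HSC counts). The reductase gene Ifi30 was lower too (log2 -2.31, or -3.78 without LT-HSC 4, which held 38 of 58). Lgmn, a further protease, had 0 counts in LT-HSC and 36 in CMP, at least 16.9-fold lower in LT-HSC against a floor of 3 counts over the LT-HSC pool, but 91.7% of its counts were in CMP 2.

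**Figure D4:**
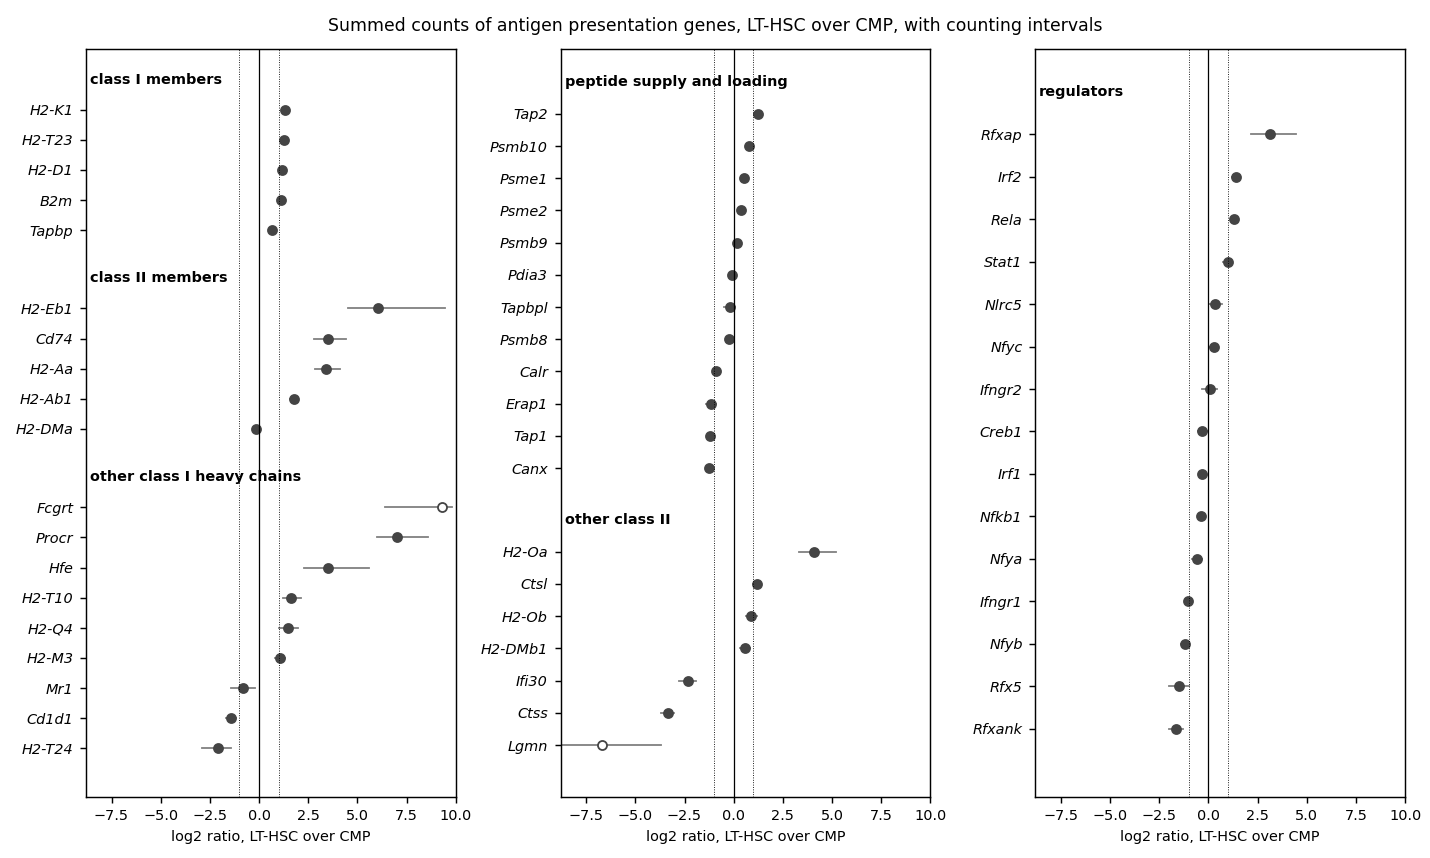
Log2 ratio of summed counts, LT-HSC over CMP, for the 10 members and the listed genes of the pathway with at least 20 counts, by list and in order of the ratio. Points are ratios with 0.5 added to each count, lines are 95% counting intervals, open points have no count in 1 gate, and dotted lines mark 2-fold. The class I members lie between 0.67 and 1.32, whereas the peptide supply genes lie on both sides of 0.

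Of 16 regulators, 15 had at least 20 counts, of which 3 were higher in LT-HSC by 2-fold or more, 4 were lower by as much and 8 lay between (median -0.30). Among all 10937 genes with at least 20 counts, 22.7% were higher and 28.1% lower in LT-HSC by 2-fold or more. Ciita, the master activator of class II genes, was without a count in all 58 cells, LT-HSC 25 included. Whether that is a loss during mapping or counting was not tested, but 10265 of the 23152 symbols, among them the glycolysis gene Eno1, were without counts throughout. Nlrc5, the related activator of class I genes, stood at 24.3 CPM in LT-HSC and 18.97 CPM in CMP (log2 0.35, interval 0.04 to 0.67). Its direction was not stable, at -0.56 without LT-HSC 24, which held 117 of its 241 LT-HSC counts, -0.04 without LT-HSC 9, 1.10 without CMP 7 and -0.66 against CMP 1 and 2. Irf2 (log2 1.40) and the NF-kappaB subunit gene Rela (log2 1.33) were higher in LT-HSC, as was Rfxap (log2 3.11), though 91.3% of its LT-HSC counts were in LT-HSC 32, without which the ratio turned to -0.27. The genes of its partners in the RFX complex, Rfxank (log2 -1.64) and Rfx5 (log2 -1.48), were lower in LT-HSC, as were Nfyb, a subunit gene of NF-Y (log2 -1.18), and the interferon gamma receptor gene Ifngr1 (log2 -1.02). Of the 49 Rfx5 counts in LT-HSC, 44 were in LT-HSC 1, without which its ratio was -4.61, and without CMP 15 it was -0.67. Nfyb was at -2.02 without LT-HSC 4. Set against CMP 1 and 2, Nfyb turned to higher in LT-HSC (2.47), Ifngr1 came under 2-fold (-0.18), Rfxank kept its direction (-2.06), and Rfx5 had no count in those CMP. Ifngr1 also came under 2-fold on leaving out any of 20 single cells (-0.83 at the least, without CMP 17).

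The genes whose cell-to-cell pattern was most like that of the class sums were found among 5428 genes with a count in at least 10 cells of each gate, by the smaller of the Pearson correlations within LT-HSC and within CMP. For class I they were Ftl1 (0.49), Myl12b (0.40), H3f3b (0.39), Rsrp1 (0.39) and Cdk5rap3 (0.37). For class II they were Cdk5rap3 (0.45), Cstb (0.40), Rcor3 (0.39), Gpcpd1 (0.39) and Ppt1 (0.38). These values describe 34 LT-HSC and 24 CMP, share each cell's total and are the highest of many.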

How the data were processed

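The counts were used as the authors deposited them, whole numbers for 23152 gene symbols in 58 cells. Per the labels' protocols, single cells were reverse transcribed by a modified Smart-seq2 method with barcoded oligo(dT) primers carrying molecular identifiers, amplified, pooled and captured at the 3′ end. The submitters' processing notes name mm10, and as tools Seurat 2.0, HTSeq and TopHat2 2.0.12, whose roles are not given. Whether a count is a molecule or a read is not given in the sources used here, and amplification would make the true error larger than the intervals. Columns were matched to cells by title. No cell or gene was removed, and doublets were not called because cells were picked singly. Depth per cell is given with the results.

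Pooled CPM is a gene's count over all cells of a gate, scaled by the count of all genes there, with an exact Poisson interval. Log2 ratios of LT-HSC over CMP used 0.5 added to each count and exact conditional binomial intervals, and shares of cells have Clopper-Pearson intervals. The interval of a difference between log2 ratios was a normal approximation. Calls used a 2-fold minimum and at least 20 counts over both gates, and detection used at least 1 or 10 counts. Likeness used log2 of counts per 10000 with 1 added. The ratio and its interval were run on simulated counts drawn without variation between cells or animals. That run therefore says nothing about such variation in these data. Python 3.11.15, numpy 2.4.6, pandas 2.3.3, scipy 1.17.1 and matplotlib 3.10.9 were used.

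The members, gene lists and alternatives were chosen with earlier results of these data known. The genes named are every member, up to 4 genes per list in each direction that passed 2-fold, Ciita, Nlrc5, Tap1 and Psmb8, and the 5 genes most like each class. Coordinates are 1-based, from GENCODE M21 on mm10 or RefSeq on GRCm38.p6 for promoters.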

Additional observations from a re-analysis of the deposited data

How the results depend on the processing

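Every ratio rests on 1 sample per gate, so no alternative measures variation between animals, and depth limits the class II genes most, with 2 to 237 counts in the CMP pool for all but H2-DMa. No paired analysis was possible because the cell numbers only name cells and no test was made. The class I log2 ratio of 1.15 was 1.20 by the mean of the per-cell CPM, 1.31 by median-of-ratios scaling (a shift of 0.15 for every gene), 1.20 with a total without ribosomal protein genes, 1.13 without shallow cells, 1.09 in thinned cells, 1.27 with LT-HSC 1 to 16, 1.09 with LT-HSC 17 to 34, 1.23 in cells without an Xist count, 1.13 without CMP 1 and 2 and 1.24 for heavy chains only. Leaving out each cell in turn gave 1.10 to 1.20. The class II ratio of 0.61 was, under the same settings in turn, 1.15 by the mean of the per-cell CPM, 0.77 by median-of-ratios scaling, 0.51 without shallow cells, 0.49 in thinned cells, 0.43 with LT-HSC 1 to 16, 0.70 with LT-HSC 17 to 34 and 0.88 in cells without an Xist count. It was 0.53 without Cd74 and 2.34 without H2-DMa (a setting added after the data were seen), and 0.48 to 0.90 on leaving out each cell, the ends being LT-HSC 25 and CMP 20. The difference of the class ratios, -0.54, was -0.048 by the mean of the per-cell CPM, -0.62 without shallow cells, -0.84 with LT-HSC 1 to 16, -0.38 with LT-HSC 17 to 34, -0.35 in cells without an Xist count, -0.63 with heavy chains only, -0.62 without Cd74 and 1.19 without H2-DMa, and -0.67 to -0.30 on leaving out each cell, without LT-HSC 25 and without CMP 20 in turn. The turn to 1.19 follows from the 1583 of 1861 CMP class II counts that were H2-DMa, and the causes of the other moves were not tested. The number of genes past 2-fold was 7 with LT-HSC 1 to 16 and 7 with LT-HSC 17 to 34, and 8 under the other 8 settings and without any 1 cell. H2-Ab1 reversed to -0.44 with LT-HSC 1 to 16. H2-DMa was above 0 under 4 of 10 settings (range -0.24 to 0.44), and the other 8 genes kept their direction under all 10. Leaving out 1 cell moved 3 genes by over 1.5 times: H2-Aa to 2.70 without LT-HSC 25, H2-Ab1 to 1.12 without LT-HSC 34, and H2-Eb1 to 4.67 without LT-HSC 27, 6.64 without CMP 1 and 6.76 without CMP 6, each of these 2 resting on 1 CMP count. In settings added after the data were seen, 3 other genes of the pathway that were past 2-fold in either direction changed sign: H2-T24 (-7.46 to 0.94 over the cells left out, the low end resting on 0 LT-HSC counts and no bound), Rfxap (-0.27 to 3.48) and Nfyb (2.47 against CMP 1 and 2). Nlrc5, under 2-fold in the full comparison, changed sign as well (-0.56 to 1.10 over the cells left out, and -0.66 against CMP 1 and 2). Genes without a count in CMP 1 and 2, such as Rfx5, gave no value there.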
